A study of Homo sapiens with 6 samples.

Results

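The genes described here encode the proteins that build the centromere and the kinetochore, together with the chromosomal passenger complex. They were chosen by symbol from a list of 39, all 39 of which were found among the 26364 genes of the authors' deposited table. Cells of the leukaemia line REH, which derives from B-cell precursors, were exposed for 6 h either to S3I-201 at 50 µM or to DMSO alone. S3I-201 is a small molecule made to block the transcription factor STAT3, and DMSO is its solvent. Both groups have 3 RNA-seq libraries from independent experiments, by the series' design text, and no genetic change is named for either group. The table gives each gene 1 value pooled over all 6 libraries, so no value of a single library can be shown. The reference group is not named in the table, whose label, DMSO vs S3I-201, could also be read as DMSO over S3I-201. A positive fold change is taken here to mean more RNA with S3I-201, since DMSO precedes it in the alphabet, and all directions below would turn if the table used the other reference.

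The centromere is the chromosomal site marked by nucleosomes that carry CENP-A, a variant of histone H3. A constitutive network of CENP proteins sits on this chromatin throughout the cell cycle. In mitosis it recruits the outer kinetochore, in which the NDC80 complex grips the spindle microtubules. The chromosomal passenger complex, built around the kinase Aurora B, releases wrongly attached microtubules. Transcripts of many of these genes peak in G2 and mitosis in dividing cells, while some centromere network genes are transcribed earlier, around the start of S phase.

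Depth, identity and precision were as follows. The 6 libraries held an estimated 6560000 to 14500000 counts, judged from the steps that single reads leave in the means of rare genes. Of 15 B-precursor markers, 13 had a mean normalized count of at least 100, up to 13622 for DNTT, in the authors' deposited table, CD34 had 3.77 and VPREB1 was listed at 0. Of 20 markers of other blood cells, 9 were listed at 0, 9 lay between 0 and 90.4, and CSF1R had 127 and MPO 978 in the authors' deposited table. No marker passed by DESeq2's adjusted p (0 of 11 tested B-precursor markers and 0 of 4 of other blood cells), and 4 markers had an unadjusted value under 0.05: DNTT, RAG1, BLNK and ELANE, which at a mean of 3.21 has no adjusted p. All values given for genes below are log2 fold changes, S3I-201 over DMSO, unless named otherwise. They appear to be shrunken: a gene seen by 1 read alone had a median size of only 0.03 to 0.04. The SE given below is implied by the table: it is the fold change on the log2 scale over the normal quantile that matches its p-value, and the 95% intervals rest on it.

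All 4 genes of the chromosomal passenger complex were lower with S3I-201, and so were the CENP-A chaperone HJURP and the outer kinetochore gene SPC25. MIS12 was higher. The 13 genes of the constitutive network held no call, but are too few to set apart from the background shares given below. An adjusted p was given for 36 of the 39 genes. By the authors' deposited table, 6 of these were lower, 1 was higher and 29 did not pass 0.05. Of all 11912 genes with an adjusted p, 1.45% were called lower, 4.45% higher and 5.9% in either direction. Among abundant genes alone, those with a mean of at least 100, as all 39 members have, 1.75% were called lower, 4.61% higher and 6.36% in either direction. The share of members called lower was 16.7% of the 36, well above that background. The share called higher, 2.78%, is 1 gene, too small a count to set apart from the background. All 7 called members changed by at least 0.5 on the log2 scale, which 5.34% of all genes with an adjusted p did while passing. An unadjusted p under 0.05 with a negative value was found for 10 of the 36, against 6.88% of all genes and 8.03% of abundant ones. Negative values were found for 30 of the 39, and the median log2 fold change was -0.19. Of all genes with an adjusted p 53.6% were negative, with a median of -0.02, and of the abundant ones 56.2%. In a bulk culture, fewer cells in mitosis and less RNA per mitotic cell cannot be told apart.

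**Figure D1:**
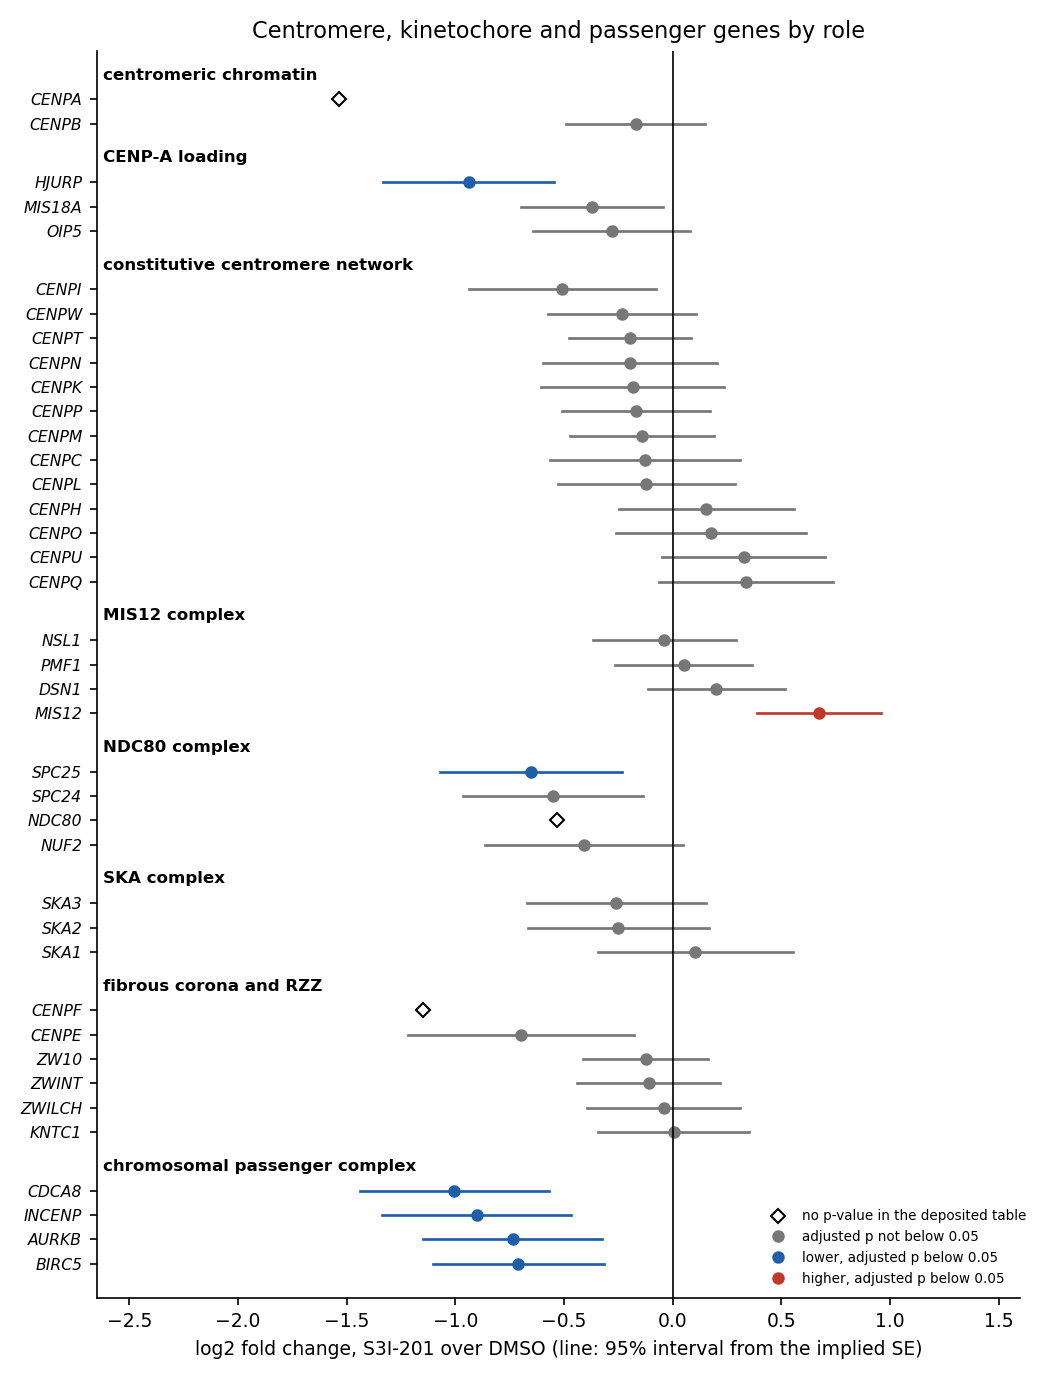
Log2 fold change (x axis, S3I-201 over DMSO) of the 39 genes, grouped by role, with points from the authors' deposited table and lines for the 95% interval. The 4 passenger genes lie between -1.01 and -0.71 with intervals below 0, MIS12 lies at 0.67, and the 3 open diamonds (CENPA, NDC80 and CENPF) have no p-value and hence no interval.

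The 4 passenger genes had values of like size. CDCA8, which encodes borealin, a subunit that helps to target the complex to the centromere, stood at -1.01 in the authors' deposited table (SE 0.22, DESeq2 adjusted p = 3.08e-04). This is a 2.01-fold difference between the groups. INCENP, the scaffold that binds and activates Aurora B, stood at -0.90 in the authors' deposited table (SE 0.22, DESeq2 adjusted p = 0.00178), a 1.87-fold difference. AURKB, the kinase itself, was at -0.74 in the authors' deposited table (SE 0.21, DESeq2 adjusted p = 0.0113). BIRC5, which encodes survivin and is also known as a STAT3 target, was at -0.71 in the authors' deposited table (SE 0.20, DESeq2 adjusted p = 0.0111). The 95% interval of each includes the values of the others, so the 4 genes cannot be ranked. Their mean normalized counts were alike too, from 1071 for AURKB to 1883 for INCENP in the authors' deposited table. AURKB and BIRC5 did not pass a stricter threshold of 0.01, which CDCA8 and INCENP did. The whole genes lie on chromosome 1 from 37692418 to 37709719 (CDCA8), chromosome 11 from 62123973 to 62153163 (INCENP), chromosome 17 from 8204733 to 8210600 (AURKB) and chromosome 17 from 78214186 to 78225636 (BIRC5), in hg38 by GENCODE 29.

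CENP-A and its chaperone both had negative values, and only the chaperone has a test. HJURP, which escorts newly made CENP-A to the centromere, stood at -0.94 in the authors' deposited table (SE 0.20, DESeq2 adjusted p = 1.79e-04), with a mean normalized count of 1073. This is a 1.92-fold difference between the groups, with a 95% interval from -1.33 to -0.54 on the log2 scale. CENPA itself had -1.54, the largest change of the 39, at a mean of 169 in the authors' deposited table, and no p-value. DESeq2, the authors' tool, withholds by default the p-value of a gene in which 1 library has an outlying count. Whether this holds for CENPA cannot be seen in pooled values, and its fold change has no error here. MIS18A and OIP5, which encode subunits of the complex that primes the centromere for HJURP, had -0.37 and -0.28 in the authors' deposited table and did not pass (DESeq2 adjusted p = 0.218 and 0.511). The 95% interval of MIS18A, from -0.70 to -0.04, lies below 0 before adjustment. CENPB, which binds a DNA motif in centromeric repeats, had -0.17 in the authors' deposited table, with a 95% interval from -0.49 to 0.15.

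Promoters of 7 members are shown as examples of where short sequence words known from cell cycle genes lie. Letters come from RefSeq (GRCh38.p14) and run 5′ to 3′ on the gene's own strand, from 170 bases before to 30 bases after the annotated start. Capitals mark the words of the cell cycle genes homology region (CHR: TTTGAA or TTCGAA) and of the CCAAT box, on either strand, so that CCAAT on the other strand reads ATTGG. The first 6 belong to the called or untested members with a CHR and the largest changes, and NSL1, with the smallest change of those without a CHR, is shown for contrast. Which of them hold a CHR was thus fixed by the choice. AURKB, called without a CHR, is not shown, nor are members near 0 with one, such as ZWINT at -0.11 and SKA1 at 0.11.
CENPA (chr2:26785886-26786085, plus strand): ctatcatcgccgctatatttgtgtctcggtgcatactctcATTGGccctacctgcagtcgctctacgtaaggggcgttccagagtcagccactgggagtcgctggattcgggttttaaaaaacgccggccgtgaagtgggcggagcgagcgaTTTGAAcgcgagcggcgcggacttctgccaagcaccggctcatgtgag
CENPF (chr1:214603025-214603224, plus strand): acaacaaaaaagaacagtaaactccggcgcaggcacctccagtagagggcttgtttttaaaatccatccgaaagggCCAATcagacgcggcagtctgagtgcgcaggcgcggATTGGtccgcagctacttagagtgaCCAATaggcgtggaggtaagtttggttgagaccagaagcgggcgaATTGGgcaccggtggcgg
CDCA8 (chr1:37692346-37692545, plus strand): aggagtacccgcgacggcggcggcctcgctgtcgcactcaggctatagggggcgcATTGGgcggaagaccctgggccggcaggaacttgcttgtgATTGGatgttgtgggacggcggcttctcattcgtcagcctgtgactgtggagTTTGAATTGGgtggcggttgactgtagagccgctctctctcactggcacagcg
HJURP (chr2:233854506-233854705, minus strand): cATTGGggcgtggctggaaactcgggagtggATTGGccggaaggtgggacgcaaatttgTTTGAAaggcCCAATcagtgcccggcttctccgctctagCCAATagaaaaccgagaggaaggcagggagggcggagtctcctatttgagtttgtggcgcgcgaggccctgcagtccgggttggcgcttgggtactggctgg
INCENP (chr11:62123841-62124040, plus strand): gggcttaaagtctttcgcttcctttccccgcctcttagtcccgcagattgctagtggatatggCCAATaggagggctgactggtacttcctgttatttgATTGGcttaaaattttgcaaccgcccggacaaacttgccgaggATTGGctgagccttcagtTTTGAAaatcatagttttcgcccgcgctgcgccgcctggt
SPC25 (chr2:168890401-168890600, minus strand): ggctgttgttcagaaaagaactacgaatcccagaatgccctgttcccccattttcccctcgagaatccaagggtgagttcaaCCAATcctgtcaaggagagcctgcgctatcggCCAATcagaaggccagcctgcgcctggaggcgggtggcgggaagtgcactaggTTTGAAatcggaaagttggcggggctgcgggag
NSL1 (chr1:212791748-212791947, minus strand): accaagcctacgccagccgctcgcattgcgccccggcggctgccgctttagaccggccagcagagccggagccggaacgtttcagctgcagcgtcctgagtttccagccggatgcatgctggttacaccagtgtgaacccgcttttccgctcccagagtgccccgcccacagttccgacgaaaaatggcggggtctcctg
Counted from the start, with negative positions before it, the CHR word of CENPA lies at -18 to -13, that of CDCA8 at -23 to -18 and that of INCENP at -10 to -5. In CDCA8 it shares a base with a CCAAT box. A CHR of SPC25 spans the start itself, that of HJURP lies at -111 to -106, and that of CENPF lies at 41 to 46, just past the letters shown. NSL1 holds neither word in this stretch.

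CHR words are the binding place of the DREAM and MuvB complexes, which hold many mitotic genes silent in G1 and activate them in G2, and CCAAT boxes bind the factor NF-Y. Of the 39 members 33 matched the promoter table by symbol, and BIRC5, CENPH, CENPL, CENPM, KNTC1 and MIS18A did not. A match by symbol need not give a gene's main start. The window matched to CENPP begins at 92600007, while the gene runs from 92325484 to 92620533 on the plus strand of chromosome 9. In the window from 250 bases before to 50 after the start, 17 of the 33 held a CHR word, or 51.5%. The share was 16.4% over all 35116 promoters of the table, 19.5% of its 27305 genes and 15.2% of genes with a mean of at least 100. Members and genes were counted as holding a word if any of their promoters did, so the shares of genes are the like comparison. Of the 5 members called lower that had a promoter, 4 held a CHR word, AURKB being the exception. The 3 members without a p-value, which have no call, all held one. Among the 24 members that did not pass, 10 held a CHR word, or 41.7%. Of all 135 genes called lower with a promoter, 33.3% held one. Differences between these shares were not tested. A CCAAT box was present in 22 of 33, or 66.7%, against 34.6% of all promoters, 39.7% of all genes with a promoter and 44.1% of genes with a mean of at least 100. E2F sites were searched on both strands as the word TTGGCGC, the word TTCCCGC and the word TTCGCGC. They were found in 13 of 33, or 39.4%, against 11.0% of all promoters, 13.1% of all genes with a promoter and 22.9% of genes with a mean of at least 100. A match is a description of letters, and no binding was measured.

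**Figure D2:**
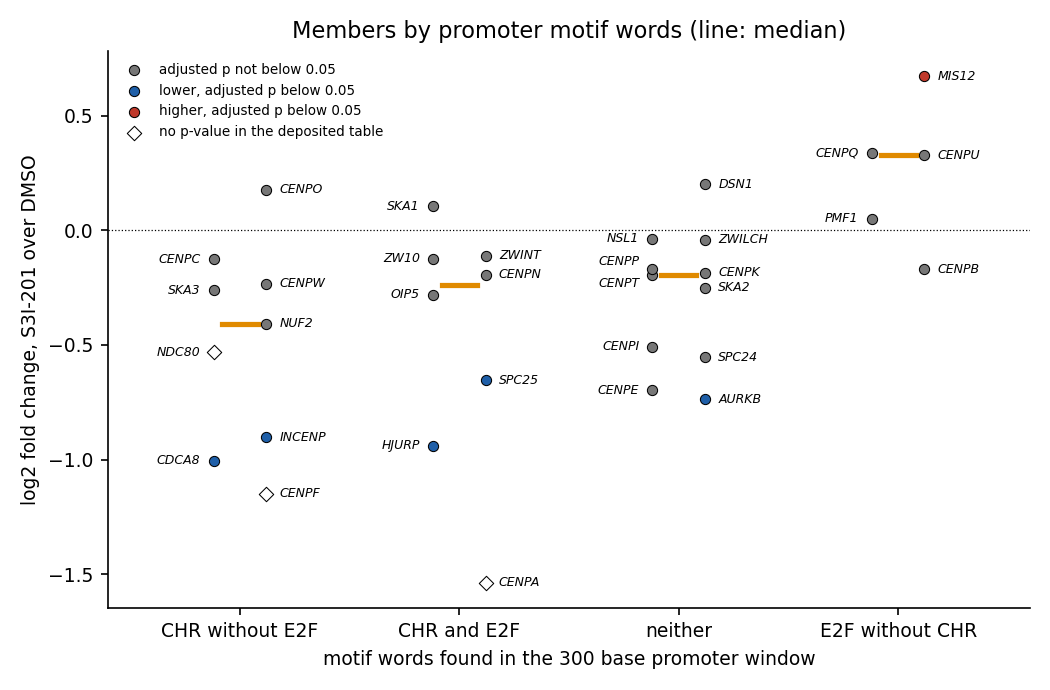
Log2 fold change (y axis) of the 33 members with a promoter, in 4 classes by the CHR and E2F words found in the 300 base window (x axis), with the orange line at the class median. The 5 members with an E2F word and no CHR word lie between -0.17 and 0.67, and the 3 members without a p-value all hold a CHR word.

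The classes by CHR and E2F word had these values. Members with a CHR and no E2F word had a median log2 fold change of -0.41 (9 genes, 8 of them negative). With both words the median was -0.24 (8 genes, 7 negative), and with neither it was -0.20 (11 genes, 10 negative). Members with an E2F word and no CHR had a median of 0.33, and only 1 of these 5, CENPB, was negative. The others were CENPQ and CENPU of the constitutive network and MIS12 and PMF1 of the MIS12 complex. This class depends on the window: from 150 bases before to 50 after the start, CENPU leaves it and ZW10 enters it, the median becomes 0.05 and 2 of 5 are negative. These classes were formed after the values were seen and were not tested.

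The NDC80 complex, 4 coiled-coil proteins that bind microtubules, was negative in every subunit. SPC25 stood at -0.65 in the authors' deposited table (SE 0.21, DESeq2 adjusted p = 0.0397) at a mean of 304. This call is near the threshold and was lost when p-values were adjusted over all genes that have one (adjusted p = 0.0561) and when the abundance trend was removed (adjusted p = 0.0531). SPC24, its partner at the end that anchors to the chromosome, had -0.55 in the authors' deposited table and did not pass (SE 0.21, DESeq2 adjusted p = 0.111). NUF2, at the end that meets the microtubule, had -0.41 in the authors' deposited table (SE 0.23, DESeq2 adjusted p = 0.402), and NDC80, its partner, had -0.53 with no p-value. The value of each lies inside the 95% intervals of SPC25, SPC24 and NUF2.

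MIS12, which names the complex that joins NDC80 to the centromere, was the single member that rose. Its value was 0.67 in the authors' deposited table (SE 0.15, DESeq2 adjusted p = 2.09e-04), a 1.59-fold difference between the groups, at a mean normalized count of 706. Its partners stayed near 0, with DSN1 at 0.20, PMF1 at 0.05 and NSL1 at -0.04 in the authors' deposited table (DESeq2 adjusted p = 0.623, 0.939 and 0.955). The 95% interval of MIS12, from 0.39 to 0.96, did not overlap those of PMF1 (up to 0.37) and NSL1 (up to 0.29) and overlapped that of DSN1 (up to 0.52). MIS12 lies on chromosome 17 from 5486285 to 5490814 on the plus strand (hg38, GENCODE 29, whole gene). DERL2, a gene of endoplasmic reticulum-associated degradation, starts head to head with it on the minus strand, from 5471251 to 5486811. The gene spans overlap by 527 bases and their exons by 301 bases, or 9.53% of the exon bases of MIS12. DERL2 had the same log2 fold change, 0.67, in the authors' deposited table (SE 0.15, DESeq2 adjusted p = 3.32e-04). The libraries do not mark the strand, so reads in the shared bases cannot be assigned to either gene, and the part of DERL2 in the value of MIS12 was not tested.

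The constitutive network held 13 genes and no call by DESeq2's adjusted p, and CENPI alone had an unadjusted value under 0.05. With 6.36% of abundant genes called in either direction, 0 of 13 cannot be set apart from the background. Its values ranged from -0.51 to 0.34 with a median of -0.14 in the authors' deposited table, and 9 of the 13 were negative. CENPI had -0.51 in the authors' deposited table (SE 0.22, DESeq2 adjusted p = 0.191). CENPC, which links CENP-A nucleosomes to the MIS12 complex, had -0.13 (95% interval -0.56 to 0.31). CENPT and CENPW, histone-fold proteins that recruit NDC80, had -0.20 and -0.23 in the authors' deposited table. Positive values belonged to CENPQ at 0.34, CENPU at 0.33, CENPO at 0.18 and CENPH at 0.15 in the authors' deposited table, with DESeq2 adjusted p-values of 0.452, 0.429, 0.799 and 0.812. CENPO, CENPU and CENPQ belong to one subcomplex, whose further members CENPP and CENP-R (ITGB3BP, taken from the list of other kinetochore genes) had -0.17 and -0.10 in the authors' deposited table (DESeq2 adjusted p = 0.732 and 0.903). CENPN at -0.19, CENPK at -0.18, CENPM at -0.14 and CENPL at -0.12 in the authors' deposited table completed the network. The interval of CENPI, from -0.94 to -0.08, includes the values of INCENP, AURKB and BIRC5, and the difference between the network and the passenger complex was not tested.

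Of the proteins that coat the outer kinetochore, the very long coiled-coil proteins had the lowest values. CENPF, a protein that accumulates in G2 and binds dynein regulators, had -1.15 in the authors' deposited table at a mean of 3225, the highest of the 39 in counts, with no p-value. CENPE, a kinesin that moves chromosomes to the metaphase plate, had -0.70 (SE 0.27, DESeq2 adjusted p = 0.108) in the authors' deposited table. Its SE was the widest of the members, 1.76 times the median of genes of like abundance. The subunits of the RZZ complex, which recruits dynein and the checkpoint, stayed near 0 in the authors' deposited table, with ZW10 at -0.12, ZWILCH at -0.04 and KNTC1 at 0.01. Their 95% intervals lay within -0.41 to 0.35, and ZWINT, the docking protein of RZZ, had -0.11 (interval -0.44 to 0.22). Of the 5 tested genes of this group 0 passed by DESeq2's adjusted p, and 1, CENPE, had an unadjusted value under 0.05. The SKA complex, which tracks microtubule ends, had -0.26 for SKA3, -0.25 for SKA2 and 0.11 for SKA1 in the authors' deposited table. None of these 3 passed by DESeq2's adjusted p or at an unadjusted value under 0.05. With 6.36% of abundant genes called, the lack of calls in groups this small cannot be set apart from the background.

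The 3 members without a p-value are a larger share than abundant genes at large show. Of all 9452 genes with a mean of at least 100, 79 lacked a p-value despite a fold change, or 0.836%, against 7.69% of the 39 members. This is not particular to the members. Among the lists described below it was 7.89% of the other kinetochore genes and 10.8% of the spindle factors. It was 2.86% of the entry and anaphase genes and 2.13% of the replication genes. Of these 79 genes, 69.6% had a negative value, and CENPA had the lowest of all, CENPF the 4th lowest and NDC80 the 10th lowest in the authors' deposited table. The tested members also varied more than genes of like abundance, with an SE above the median of their abundance bin in 28 of 36. The median ratio to that bin was 1.19 over these members and 1.43 over the passenger genes. An SE above the bin median was as common in 27 of 35 other kinetochore genes and 28 of 33 spindle factors. The median ratios of these lists were 1.14 and 1.36. It also held for 24 of 34 entry and anaphase genes and 39 of 46 replication genes. A large spread widens the intervals, and of the 29 genes that did not pass, 9 had a 95% interval wholly within 0.5 of 0 on the log2 scale. For the rest a change of that size in at least 1 direction lies inside the interval.

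**Figure D3:**
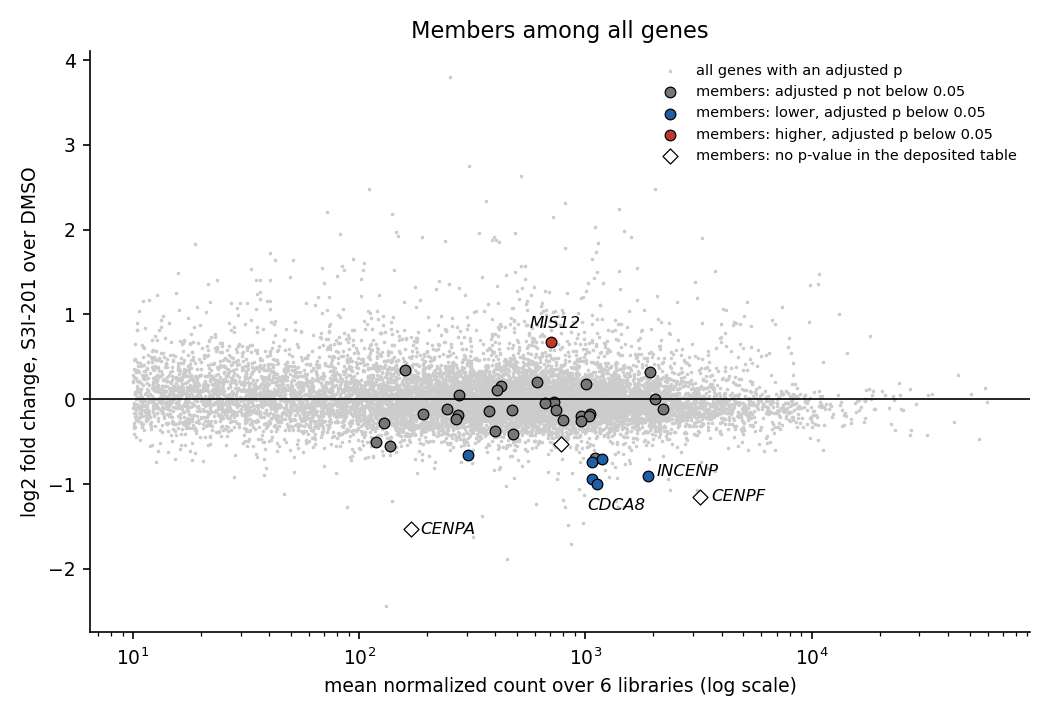
Mean normalized count (x axis, log scale) and log2 fold change (y axis) of all genes with an adjusted p (grey) and of the 39 members (large symbols). The members lie between means of 118 and 3225, and those called lower lie at -0.65 or lower.

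Levels can be compared between genes only per length. Divided by the length of the main coding transcript in GENCODE 29, the mean normalized count per kilobase was highest for ZWINT at 1183, followed by CENPU at 968 and AURKB at 873. It was lowest for CENPP at 21.9, CENPI at 36.3 and SPC24 at 58.9 per kilobase, so that the range was 54.0-fold. The value of CENPP rests on a transcript model of 8766 bases. This range and that of the constitutive network both end at CENPP and so depend on that model. Subunits of the MIS12 complex had nearly equal levels per kilobase, within 1.25-fold, and those of the passenger complex lay within 1.94-fold. Levels within the NDC80 complex ranged 6.10-fold per kilobase, from SPC24 at 58.9 to NDC80 at 359, and those within the constitutive network 44.2-fold. These levels pool both groups and depend on transcript models that may differ from those the authors counted on.

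Some further members share exon bases with neighbouring genes, and the libraries do not mark the strand. The authors' gene annotation and strand setting are not given, so how reads in these bases were counted is unknown. Exons of another gene overlapped those of 14 members. Among partners on the opposite strand, the largest shares of exon bases were 38.0% for OIP5 with OIP5-AS1, 38.0% for CENPP with IPPK, 27.0% for CENPO with ADCY3 and 12.8% for CENPN with CMC2. All 4 members and their partners failed to pass by DESeq2's adjusted p, and CENPO had 0.18 where ADCY3 had -0.34 in the authors' deposited table. PMF1 shares 23.3% of its exon bases with the readthrough gene PMF1-BGLAP on the same strand, which had a mean of only 2.92 in the authors' deposited table. Their part in the members' values was not tested.

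Other centromere and kinetochore genes had a like mixture of values. Of 38 genes that join these structures outside the 39, 35 had an adjusted p, of which 5 were lower, 0 higher and 30 did not pass, with a median of -0.20 in the authors' deposited table. The 5 were the mitotic kinases AURKA at -1.23 and PLK1 at -1.28, the checkpoint proteins BUB1 at -0.92 and BUB1B at -0.80, and SGOL2, a protector of centromeric cohesion, at -0.71. No gene of this list was higher by DESeq2's adjusted p or at an unadjusted value under 0.05. The regulators of mitotic entry and anaphase had 9 of 34 lower and a median of -0.34, led by CCNB1 at -1.48, UBE2C at -1.28, CDC20 at -1.27 and CDCA3 at -1.38 in the authors' deposited table. Spindle assembly factors had 12 of 33 lower and a median of -0.54, led by PSRC1 at -1.89, KIF20A at -1.70, KIF23 at -1.19 and HMMR at -1.03 in the authors' deposited table. Replication licensing and fork genes, transcribed around the start of S phase, had 2 of 46 higher (MCM5 at 0.51 and CDT1 at 0.53), 0 lower and a median of 0.07 in the authors' deposited table. Their share called higher, 4.35%, was close to the 4.45% of all genes with an adjusted p. MCM7 alone of that list was negative with an unadjusted value under 0.05, at -0.44 (DESeq2 adjusted p = 0.0940). PCNA at 0.41 and ORC1 at 0.43 were positive with an unadjusted value under 0.05 (DESeq2 adjusted p = 0.109 and 0.193). Of the 47 genes of that list 32 had a positive value, the highest being CDC6 at 0.76, which has no p-value. The shares called lower were thus 16.7% of the 36 members, 14.3% of the other kinetochore genes, 26.5% of the entry and anaphase genes and 36.4% of the spindle factors. Differences between these lists were not tested.

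**Figure D4:**
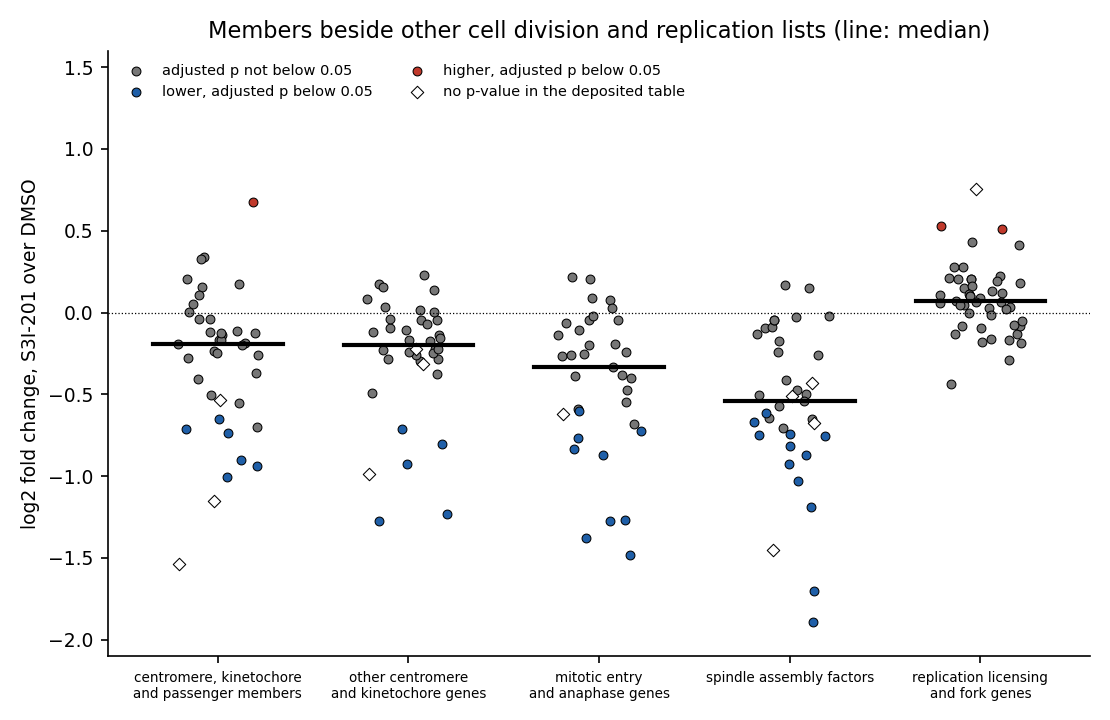
Log2 fold change (y axis) of the 39 members and of 4 other lists (x axis), 1 point per gene, with the median as a black line. The members' median of -0.19 is close to that of the other kinetochore genes at -0.20, above that of the spindle factors at -0.54 and below that of the replication genes at 0.07.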

How the data were processed

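Libraries followed the TruSeq RNA v2 method, which keeps no strand information, on RNA from a spin column. The submitters' processing notes name hg38, bcl2fastq 2.19, Trimmomatic, Bowtie2, Picard, featureCounts and DESeq2, with neither role nor order. Gene annotation, strand setting and model are not given in the sources used here. Per the file headers, the table's mean normalized count is a signal the authors averaged over libraries. Its log2 fold change, its p-value and its adjusted p are likewise the authors' values, per the file headers. The table holds no counts per library that edgeR could test, so the authors' adjusted p was used.

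An adjusted p exists for 11912 of the 26364 genes, and those all have means of 10.0 or more. The threshold was 0.05. SEs, 95% intervals, renewed Benjamini-Hochberg adjustments and removal of the median in 20 abundance bins used Python 3.11.15 and scipy 1.17.1 and were checked on simulated data. Gene positions, exons and principal transcripts came from GENCODE 29 and promoters from RefSeq, joined by symbol. All members are named, and of each other list the 4 called genes with the smallest adjusted p. SGOL2, MCM7, PCNA, ORC1, CDC6, neighbouring genes and the motif classes were chosen after their values were seen. The members and lists were chosen with earlier results of these data known.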

Additional observations from a re-analysis of the deposited data

How the results depend on the processing

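The calls of the 36 tested members were repeated at thresholds of 0.01 and 0.1, with adjustment over all genes that have a p-value, with adjustment over genes with a mean of at least 100, with a minimum log2 fold change of 0.5, and with the abundance trend removed. Of 216 such values of single members, 210 kept their side of the threshold and their direction. Many of these outcomes were fixed in advance, so this count is no measure of robustness. A member not called cannot gain a call at 0.01 or with the minimum change. A called one cannot lose it at 0.1, and direction can turn only with the trend removed. All 5 values that lost a call belonged to called members, namely SPC25, BIRC5 and AURKB. At 0.01 the number of lower members fell from 6 to 3 (HJURP, INCENP and CDCA8), that of the other kinetochore genes from 5 to 3 and that of higher replication genes from 2 to 0. At the threshold of 0.1, 1 replication gene was lower. Adjusting across every gene that has a p-value left 1 replication gene higher and 5 members lower, without SPC25. NSL1, never called, turned from -0.04 to 0.0017 with the abundance trend removed. The median of the members was -0.18 without the 3 that have no p-value and -0.14 with the trend removed. In the shorter window from 150 bases before to 50 after the start, 16 promoters held a CHR word, 20 a CCAAT box and 11 an E2F word. In that window, applied to the promoter classes after seeing the data, the median of members with an E2F word and no CHR moved from 0.33 to 0.051. No paired analysis was possible because the deposited table has no values per library, and for the same reason leaving out each replicate was not run.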

Other observations

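Some members start close to another cell division gene on the opposite strand. SKA2 and PRR11, a gene of late cell cycle progression, lie head to head with 229 bases between them on chromosome 17. PRR11 was lower at -0.86 in the authors' deposited table (SE 0.23, DESeq2 adjusted p = 0.00530), while SKA2 had -0.25 (95% interval -0.67 to 0.17). CENPB and CDC25B, a phosphatase that promotes mitotic entry, lie head to head with 81 bases between them on chromosome 20. CDC25B was lower at -0.87 in the authors' deposited table (SE 0.18, DESeq2 adjusted p = 5.44e-05), while CENPB had -0.17 (95% interval -0.49 to 0.15). In both pairs the interval of the called gene excludes the value of its neighbour. The interval of PRR11, from -1.30 to -0.41, still overlaps that of SKA2. That of CDC25B, from -1.22 to -0.53, does not overlap that of CENPB. The differences themselves were not tested. The pairs were chosen after their values were seen.

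A CHR word was found in 23 of 35 spindle assembly promoters, 15 of 31 mitotic entry and anaphase promoters, 8 of 27 promoters of the other centromere and kinetochore genes and 1 of 41 replication promoters. E2F words were found in 30 of 41 replication promoters, 12 of 31 mitotic entry and anaphase promoters, 9 of 27 other centromere and kinetochore promoters and 10 of 35 spindle assembly promoters. Of all 135 genes called lower with a promoter in the table, 45 held a CHR word, or 33.3%, against 19.5% of the 27305 genes with a promoter. These are counts of letters, and no test was made of them.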
